A study of Drosophila melanogaster with 837 samples.

Results

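Among single cells sorted as muscle from late fly embryos, 45 cells carried reads of Dr together with genes of the fat body, and they were compared here with cells of the same kind that carried no Dr read. Both groups were selected on measured values of the series count table. Cells with enough genes detected and with at least 10 reads each of apolpp, FASN1 and prc, fewer than 10 of Ppn and fewer than 100 of Mhc are called fat-body-like cells below. They numbered 290, or 34.6% of all cells in the series. The 45 Dr-positive cells had at least 10 Dr reads, the Dr-negative cells (77.6% of the 290) had 0, and 20 cells with 1 to 9 Dr reads (6.90%) belonged to neither group and are described beside them. The question asked was whether the groups differed in anything beyond Dr: in total reads, in the share of ribosomal RNA, in the Hox genes, or in the rest of the transcriptome.

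The Drosophila melanogaster embryos were aged 19 to 20 h and carried the Mhc-TAU-GFP reporter, whose fluorescence follows the Myosin heavy chain gene. Sorted cells were GFP-positive, stained for DNA with DRAQ5 and free of DAPI, a sign of an intact membrane, and 1 cell was placed in each well of a 96-well plate for Smart-seq2. Primers against the 7 Hox genes were added to raise their representation. All libraries have the same label, and no animal or culture is named, so they are 1 sample: no p-value is given, cells are not replicates, and the intervals below cover counting error only. The plate (15 in all) is a technical unit, and the SD over plates is a technical spread.

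The fat body of the fly stores lipid and glycogen, secretes lipoproteins and basement membrane proteins into the hemolymph, and produces the peptides of the humoral immune response, so that it is often compared with liver and adipose tissue. Dr (Drop, also known as muscle segment homeobox) encodes a homeodomain transcription factor of the Msx family. It is known for specifying the dorsal column of the neuroectoderm, where it acts beside vnd and ind, and for the identity of a subset of dorsal and lateral somatic muscles. Hox genes encode the homeodomain factors that give a cell its position along the anterior to posterior axis. Dr is gene FBgn0000492 and lies on chromosome 3R of BDGP6, from 29556386 to 29565244 on the plus strand.

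In the Dr-positive cells Dr had 10 reads at the lowest and 67 at the median, and 17 of the 45 cells had 100 reads or more. On the CPM scale (reads of the gene per 1000000 reads outside ribosomal RNA) the Dr level was 4.08 at the lowest, 117.8 at the median and 2117 at the highest. Just inside the threshold lay cells with 10, 10 and 14 reads and just outside it cells with 8, 7 and 7 reads. Only 5 of the 45 cells had under 20 reads, so that few of them sat at the threshold. Dr-positive cells were found on 14 of the 15 plates, with at most 6 on a plate, and plate 9 held 0.

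**Figure D1:**
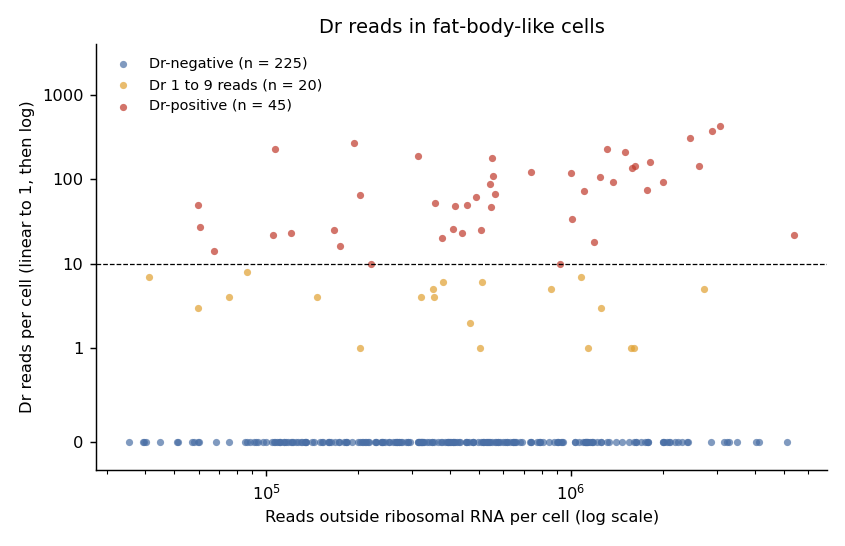
Dr reads per cell (vertical axis, linear up to 1 and logarithmic above) against reads outside ribosomal RNA per cell (horizontal axis, log scale) in the 290 fat-body-like cells, 1 point per cell, with the dashed line at 10 reads. The 45 Dr-positive cells spread over nearly the whole range of depth of the Dr-negative cells, and 20 cells lie between 1 and 9 reads.

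Among all cells that passed the filter, Dr reads were concentrated in those with fat body genes. A count of 10 Dr reads was reached by 45 of 290 fat-body-like cells (15.5%, exact 95% interval 11.5 to 20.2%) and by 6 of the other cells that passed the filter (1.16%, 0.425 to 2.50%), at median depths of 414010 and 388849 reads outside ribosomal RNA. Of the other cells with at least 10 reads of Ppn (Papilin, a matrix gene of hemocytes) 0 had 10 Dr reads, which allows a share of up to 1.32%. Of the 64 other cells with at least 100 reads of Mhc 1 had 10 Dr reads (1.56%, 0.0396 to 8.40%), a small class with a wide interval. When each cell was thinned to the same 106582 reads, which left out shallower cells, 25 fat-body-like cells (9.65%, 6.34 to 13.9%) and 4 other cells (0.855%, 0.233 to 2.17%) still had 10 Dr reads. The intervals do not overlap at either depth. Of the 6 Dr-positive cells outside, 4 had at least 10 reads of both apolpp and prc and missed the rule through FASN1 (0 reads in 3 cells) or through Mhc (1 cell), and the remaining pair, of which 1 cell had 1086 Dr reads, had at most 1 read of apolpp and 0 of prc.

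Whether a cell counted as Dr-positive moved with its depth. Of the 97 shallowest fat-body-like cells 11.3% (5.80 to 19.4%) had 10 Dr reads, of the 96 at middle depth 14.6% (8.21 to 23.3%) and of the 97 deepest 20.6% (13.1 to 30.03%). After thinning the 3 shares were 9.09%, 10.4% and 9.28%. At 10 reads the order seen in the full counts was thus not present at equal depth. At lower limits it was: the thinned shares were 9.09%, 11.5% and 14.4% at 5 reads and 13.6%, 20.8% and 21.6% at 1 read. Thinning kept only 66 of the 97 shallowest cells.

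The label of the cells was checked on their markers. Of 21 measured fat body markers 20 could be compared, and 0 of them were past the rule described below in either direction. These 20 include apolpp, FASN1 and prc, which the selection holds at 10 reads or more in every cell, so these genes cannot check the label. Lipid storage and synthesis genes were detected (at least 10 reads) in most cells of both groups: Lsd-1, which encodes a perilipin of the lipid droplet, in 91.1% of Dr-positive and 76.4% of Dr-negative cells, the desaturase gene Desat1 in 88.9% and 76.9%, and the GATA factor gene srp, which specifies the fat body, in 95.6% and 88.9%. Other markers went the other way. Of the 20 compared, 14 had the lower mean CPM in Dr-positive cells and 6 the higher. At equal depth 11 had the lower share there and 9 the higher. Among the 11, kar was found in 21.95% of Dr-positive against 33.7% of Dr-negative cells and Tret1-1 in 80.5% against 88.6%. The larval serum protein genes Lsp1alpha, Lsp1beta and Lsp2 and the fat body genes Fbp1 and Fbp2 were not analysed here, and Lsp1gamma reached 10 reads in 2.22% and 2.67% of cells. The basement membrane genes vkg and SPARC, which fat body and hemocytes share, were detected in 100% of Dr-positive cells and in 99.1% and 98.7% of Dr-negative cells. The defining hemocyte genes NimC1, He and eater reached 10 reads in 0% of both groups, and Hml in 0% and 0.444%. The selection left out cells with 10 or more reads of the hemocyte gene Ppn, which may fix these low shares in part. They are therefore not an independent check of the label. Of the other hemocyte markers, the scavenger receptor gene crq was detected in 17.8% of Dr-positive and 5.78% of Dr-negative cells, but in 0% and 3.47% at equal depth, and the engulfment receptor gene drpr in 48.9% and 32.4%, and in 24.4% and 20.8% at equal depth. Of the 6 hemocyte markers compared, which include srp, 0 were past the rule. Detection of srp thus does not separate fat body from hemocytes. The summed level of the 14 measured, Ppn left out and vkg, SPARC and Col4a1 included, ran from 7821 to 51149 CPM in Dr-positive and from 71.999 to 95920 CPM in Dr-negative cells. The part of hemocyte reads in the results was not tested. Both groups carried the fat body markers given here, although the sort was for a muscle reporter.

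Contractile muscle genes were low in both groups, which the ceiling of 100 Mhc reads fixes in part. The troponin C gene TpnC47D was detected in 11.1% of Dr-positive and 4.89% of Dr-negative cells, Mlc2 (myosin light chain) in 11.1% and 9.78%, and up (troponin T) in 2.22% and 6.67%. The summed level of the 19 contractile genes other than Mhc was 1.84 at the lowest, 283.4 at the median and 5982 at the highest CPM in Dr-positive cells, against 0, 230.2 and 40616 CPM in Dr-negative cells. Some neuronal transcripts were found in both groups. The gene elav reached 10 reads in 71.1% and 63.1% and Syt1 in 86.7% and 83.1% of cells, while the vesicle gene nSyb did so in 0% and 1.33%. At equal depth the order of both turned, with Syt1 in 12.2% of Dr-positive and 32.2% of Dr-negative cells and elav in 39.02% and 42.6%, and all 4 neuronal markers that could be compared had the lower thinned share in Dr-positive cells. The summed level of the 11 neuronal markers ranged from 54.1 to 2132 CPM (median 194.99) in Dr-positive and from 35.9 to 3376 CPM (median 240) in Dr-negative cells. The part of these reads in the results below was not tested.

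Dr-positive cells had more reads. Total reads per cell were 192165 at the lowest, 1310486 at the median and 6870936 at the highest in the 45 Dr-positive cells, and 121279, 927561 and 6740449 in the Dr-negative cells. The ranges overlapped almost fully, and the ratio of the medians was 1.41. The 20 cells with 1 to 9 Dr reads had a median of 944170 reads. Within plates the Dr-positive median was higher on 10 of the 14 plates that held both groups, and the log2 ratio averaged 0.53 ± 0.59 (SD over 14 plates), with ratios from 0.823 to 3.03. The mean difference was thus smaller than its spread between plates. Since a cell needs 10 Dr reads to enter the group, depth and membership are linked by the rule, and among cells at or above the median depth of 414010 reads outside ribosomal RNA the medians were equal, with a ratio of 1 (30 Dr-positive cells). That ratio is bound in turn by the cut on depth.

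The share of ribosomal RNA was lower in the Dr-positive cells at the median, with a wide overlap. It was 12.6% at the lowest, 32.2% at the median and 93.8% at the highest in Dr-positive cells, against 4.53%, 44.6% and 95.8% in Dr-negative cells, a difference of medians of -12.5 percentage points. The cells with 1 to 9 Dr reads had a median of 31.1%. The median was lower on 12 of 14 plates, with a mean difference of -10.1 ± 19.5 percentage points (SD over 14 plates) and a range from -36.1 to 45.05. Plate 12, with 1 Dr-positive cell, and plate 17, with 4, went the other way. In 15 of 45 Dr-positive cells (33.3%, 20.0 to 48.95%) and 98 Dr-negative cells (43.6%, 36.98 to 50.3%) at least 50% of the reads were ribosomal RNA. These intervals overlap, and among cells under 50% the medians differed by -0.22 percentage points.

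**Figure D2:**
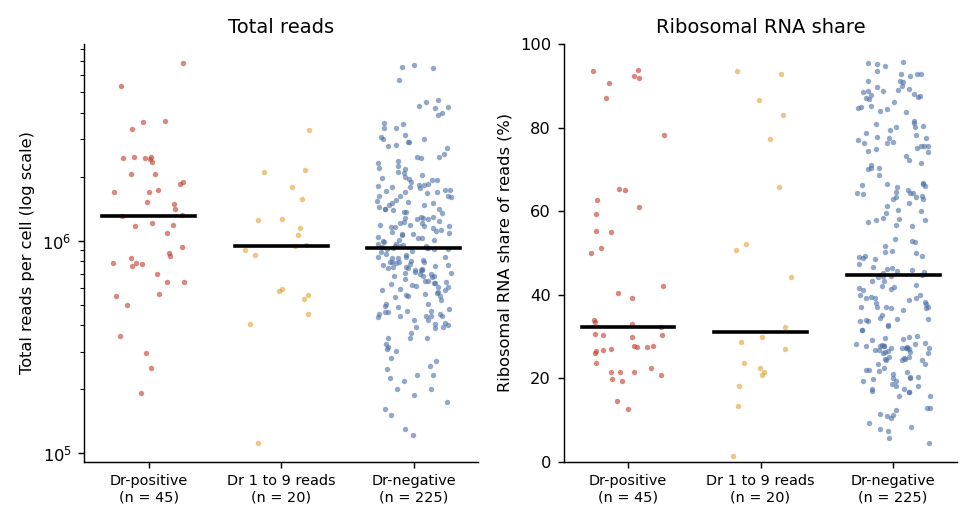
Total reads per cell (left, log scale) and the share of reads from ribosomal RNA in percent (right) for the 45 Dr-positive cells, the 20 cells with 1 to 9 Dr reads and the Dr-negative cells, 1 point per cell and a black line at the median. The medians of total reads are 1310486, 944170 and 927561, those of the ribosomal RNA share 32.2%, 31.1% and 44.6%, and the points of the groups overlap over most of the range.

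More genes were detected in Dr-positive cells, and most of that difference went with depth. The number of genes with 10 reads was 2387 at the median and 3325 at the highest in Dr-positive cells, against 1734 and 3533 in Dr-negative cells. After thinning the medians were 1321 (in 41 cells) and 1247, with quartiles of 1241 and 1385 against 1044 and 1377. The Dr-negative group therefore kept a longer tail of cells with few genes at equal depth, which is given here because it moves with every share of cells below.

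The Hox genes did not separate the groups. At least 1 Hox gene reached 10 reads in 30 of 45 Dr-positive cells (66.7%) and in 56.9% of Dr-negative cells, a difference of 9.78 percentage points (Newcombe 95% interval -6.12 to 23.4). At equal depth the order was turned: 9 of 41 thinned Dr-positive cells (21.95%, 10.6 to 37.6%) and 57 Dr-negative cells (28.2%, 22.1 to 34.96%) had a Hox gene, a difference of -6.27 percentage points (-18.2 to 9.57). Another random draw of the thinning gave -0.36, and detection at 1 read in place of 10 gave 6.76. All of these lie inside one or the other interval, both intervals hold 0, and no order can be read from them. They do not show that the groups were alike, since either interval allows a difference of well over 9 percentage points.

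Taken gene by gene along the axis, the intervals of the groups also overlapped. The head gene lab was detected in 6.67% of Dr-positive and 1.78% of Dr-negative cells, Dfd in 1 cell of each group and Scr in 0 of 45 cells, which allows a share of up to 6.67%, and in 1 Dr-negative cell. The thoracic gene Antp was detected in 28.9% (16.4 to 44.3%) and 19.1% (14.2 to 24.9%), and Ubx in 17.8% (8.002 to 32.1%) and 17.3% (12.6 to 22.9%). The abdominal gene abd-A was detected in 28.9% (16.4 to 44.3%) and 24.4% (19.0 to 30.6%), and Abd-B, which marks the most posterior segments, in 20.0% (9.58 to 34.6%) and 12.4% (8.43 to 17.5%). After thinning Antp was found in 0 of 41 Dr-positive cells, which allows a share of up to 7.32%, and in 6.93% of Dr-negative cells. Abd-B was found in 12.2% and 5.45%, again with overlapping intervals. By level, the mean of Abd-B was 43.1 CPM against 20.6 CPM and that of Ubx 8.04 CPM against 26.3 CPM, while the median of every Hox gene was 0 CPM in both groups. Cells with more than 1 Hox gene made up 31.1% against 16.9% in the full counts, where the interval of the difference (1.43 to 29.4 percentage points) does not hold 0, and 7.32% against 2.97% after thinning, where it does (-1.51 to 16.6).

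Classes of cells by Hox gene had similar shares of Dr. It reached 10 reads in 15 of 85 cells with abd-A or Abd-B (17.6%, 10.2 to 27.4%), in 15 of 85 cells with Scr, Antp or Ubx only (17.6%, 10.2 to 27.4%) and in 15 cells with no Hox gene (12.6%, 7.23 to 19.9%). The last class was also shallower, with a median of 273128 reads outside ribosomal RNA against 542990 and 562091. After thinning the 3 shares were 10.4%, 10% and 8.91%, with overlapping intervals.

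**Figure D3:**
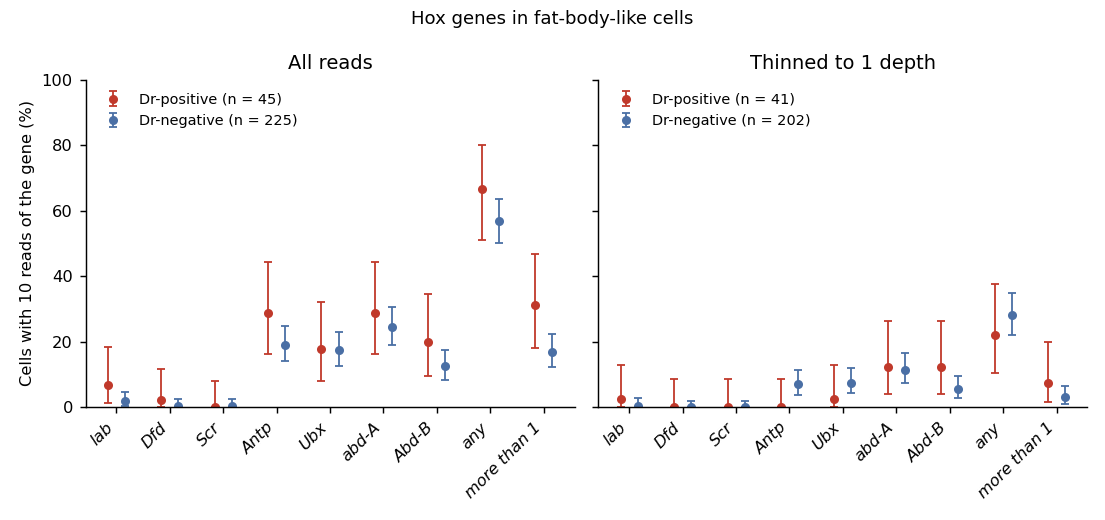
Share of cells with 10 reads of each Hox gene, of any Hox gene and of more than 1 Hox gene (vertical axis, percent) in Dr-positive and Dr-negative cells, with exact 95% intervals for counting error, in all reads (left) and after thinning to equal depth (right), with the number of cells in the legend. For any Hox gene the order of the groups turns, from 66.7% against 56.9% to 21.95% against 28.2%, and the intervals of each gene overlap.

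Across the transcriptome the groups were close, and few genes stood apart. A gene was called past the rule where its mean CPM differed at least 2 times between the groups (with 5 CPM added to each mean) and the thinned share of cells with 10 reads differed by at least 10 percentage points in the same direction. This is a rule of size on 1 sample and not a test. Of 6251 genes compared, 30 were past the rule with the higher value in Dr-positive cells (0.48%) and 21 with the lower value (0.336%). The median log2 ratio of all genes was -0.04, 66.2% of the genes lay within 0.5 log2 units of 0, and of the 1596 genes detected in at least 50% of the cells of either group 24 reached the 2-fold ratio. Shares leaned towards the Dr-positive group, since 8.99% of the genes were at least 10 percentage points higher there at equal depth and 1.78% lower. The tail of gene-poor Dr-negative cells moved with this lean, and its part in it was not tested beyond the cells with at least 1000 genes after thinning, among which 17 genes were higher and 29 lower, 11 and 12 of them among the 30 and 21.

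**Figure D4:**
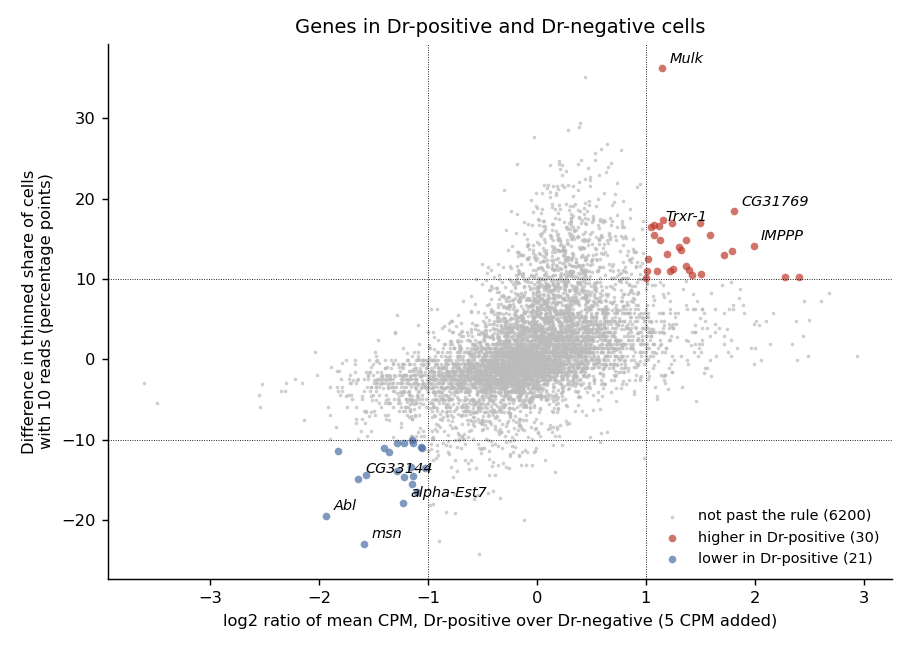
Difference in the thinned share of cells with 10 reads (vertical axis, percentage points) against the log2 ratio of mean CPM, Dr-positive over Dr-negative (horizontal axis, 5 CPM added), 1 point per gene for 6251 genes, with dotted lines at the limits of the rule. The 30 genes past the rule on the higher side and the 21 on the lower side are coloured, and Mulk stands furthest up with 60.98% against 24.8% of cells.

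The gene with the largest difference in detection was Mulk, which encodes a multisubstrate lipid kinase. It reached 10 reads in 60.98% of thinned Dr-positive and 24.8% of Dr-negative cells, a difference of 36.2 percentage points (Newcombe 95% interval 19.7 to 50.7, before any allowance for its choice among 6251 genes). Its level was 0 CPM at the lowest, 110.4 at the median and 513.7 at the highest in Dr-positive cells, and 0, 0 and 642.8 CPM in Dr-negative cells. The ranges overlapped fully, but over 50% of the Dr-positive cells had the transcript. The mean was 118.6 CPM against 50.6 CPM, higher on 10 of 14 plates. In the cells with 1 to 9 Dr reads, which the rule for Mulk did not use, the mean was 59.5 CPM and the thinned share 37.5% (6 of 16 cells), between the 2 groups. Within the Dr-positive cells the mean of Mulk was lower where Dr reads were many, at 75.1 CPM in the 17 cells with 100 Dr reads or more and 144.96 CPM in the others. That split is on Dr reads, which move with depth, and not on the Dr level in CPM. Mulk stayed past the rule without any 1 plate and kept its direction under all 19 other alternatives, but its log2 ratio of 1.15 became 0.55 among deeper cells and 0.75 among cells with under 50% ribosomal RNA, short of the 2-fold limit. It was past the rule in 14 of the 19, and missed it also with Dr-positive set at 1 read, at 50 reads and with the deposited TPM.

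Of the other genes among the 12 that led the higher side, Mfe2, which encodes the peroxisomal multifunctional enzyme of beta-oxidation, had a mean of 60.4 CPM against 22.6 CPM and was found in 26.8% against 9.90% of thinned cells, higher on 11 of 14 plates. Its level ran from 0 to 417.4 CPM in Dr-positive and from 0 to 333.9 CPM in Dr-negative cells, with a median of 0 in both. Trxr-1, the thioredoxin reductase gene, had a mean of 190.7 CPM against 85.3 CPM and a median of 74.4 CPM against 0, and was found in 48.8% against 32.2% of thinned cells, higher on 8 of 14 plates. A single Dr-positive cell at 3524 CPM held 41.1% of the Trxr-1 sum of its group. Both genes were short of the limit among cells with under 50% ribosomal RNA and among deeper cells. The log2 ratio of Trxr-1 was 0.16 among cells with at least 1000 genes after thinning.

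CaBP1, a protein of the endoplasmic reticulum with thioredoxin domains, had a mean of 180.6 CPM against 78.2 CPM and was found in 31.7% against 14.4% of thinned cells, with the higher mean on 7 of 14 plates. The ubiquitin-conjugating enzyme gene Ubc4 had 66.7 CPM against 18.9 CPM, found in 21.95% against 6.44% and higher on 7 of 14 plates. A single Dr-positive cell held 39.7% of the CaBP1 sum of its group, and a single cell 40.03% of that of Ubc4. The autophagy receptor gene ref(2)P had 58.6 CPM against 25.7 CPM, found in 26.8% against 10.4% and higher on 8 of 14 plates. The median of all 3 genes was 0 CPM in both groups, so these differences were carried by a minority of cells. In the cells with 1 to 9 Dr reads CaBP1 had 9.8 CPM, Ubc4 10.2 CPM and ref(2)P 13.9 CPM, lower than in either group.

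The others of the 12 were Ars2, which acts with the nuclear cap-binding complex, the immune peptide gene IM3, and CG31769, CG9451, CG18178 and CG11127. Ars2 had 124.4 CPM against 45.2 CPM and was found in 36.6% against 21.8% of thinned cells, higher on 11 of 14 plates. CG31769 had 91.3 CPM against 22.5 CPM, and 1 Dr-positive cell at 1966 CPM held 47.9% of its sum, with the higher mean on 6 of 14 plates. It was the one gene of the 24 named here from both sides whose log2 ratio changed sign under any alternative, to -0.42 among cells with at least 50% ribosomal RNA. The difference in share of cells changed sign in others. On the lower side it reached 14.8 percentage points for bip2, 13.7 for REPTOR, 5.46 for msn and 4.29 for l(1)G0156. For CG6180 and fok it reached 0.797 and 0.471, and on the higher side it fell to -0.242 for CG9451. CG9451 had 121.6 CPM against 39.8 CPM, higher on 8 of 14 plates, and was past the rule in 18 of 19 alternatives and without any 1 plate, the most of the 24. CG18178 had 97.1 CPM against 43.5 CPM, higher on 8 plates, and CG11127 had 34.4 CPM against 13.7 CPM, higher on 9. IM3 was higher on 7 of 14 plates.

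The 21 genes on the lower side included several regulators. The kinase gene msn, which encodes misshapen, an activator of the JNK pathway, had a mean of 39.1 CPM in Dr-positive and 127.4 CPM in Dr-negative cells and was found in 9.76% against 32.7% of thinned cells (difference interval -31.9 to -8.7 percentage points). Its level was 0 CPM at the lowest, 13.6 at the median and 262.5 at the highest in Dr-positive cells, and 0, 25.5 and 5273 CPM in Dr-negative cells. The tyrosine kinase gene Abl had 48.4 CPM against 199.5 CPM, with a median of 14.4 CPM against 30.5 CPM and a highest value of 501.2 CPM against 4572 CPM, and was found in 9.76% against 29.2% of thinned cells. The means thus differed more than the medians, with the highest cells in the Dr-negative group. The highest cells of msn and Abl had 40203 and 75464 reads outside ribosomal RNA, under the 106582 of thinning, so they count in the means only. Of the 19 alternatives msn was past the rule in 12 and Abl in 17. Both missed it without thinning and with the deposited TPM, and msn also among cells with under 50% ribosomal RNA and among deeper cells. In the cells with 1 to 9 Dr reads msn had 88.5 CPM and Abl 95.5 CPM, between the groups.

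Next to them stood genes of several kinds, among them genes of chromatin and transcription. Set1, a histone H3 lysine methyltransferase, was found in 0 of 41 thinned Dr-positive cells, which allows a share of up to 7.32%, and in 13.9% of Dr-negative cells, with means of 11.4 CPM and 34.9 CPM. It was not absent from Dr-positive cells, since in the full counts it reached 10 reads in 22.2% of them and in 23.6% of Dr-negative cells. The gene bip2, which encodes the TFIID subunit Taf3, had 44.7 CPM against 105.1 CPM, yet its median was higher in Dr-positive cells, at 30.4 CPM against 8.88 CPM. REPTOR, a transcription factor held back by TORC1, had 37.7 CPM against 88.7 CPM, and the chloride channel gene ClC-a 47.96 CPM against 118.2 CPM. The esterase gene alpha-Est7 had 112.9 CPM against 271.1 CPM, and CG6180 30.1 CPM against 70.2 CPM. CG33144 had 11.3 CPM in Dr-positive cells (log2 ratio -1.64), and the kinase gene CG8485 (Snrk) 19.2 CPM against 66.9 CPM. The isocitrate dehydrogenase subunit gene l(1)G0156 (Idh3a) had 116.7 CPM against 242.5 CPM, and fok 94.3 CPM against 216.4 CPM. The Dr-negative mean of CG8485 rested in part on 1 cell, which held 35.4% of its sum.

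Both counts depended on how the cells were counted, the lower side most. Another random draw of the thinning gave 38 higher and 21 lower genes, of which 28 and 12 were among the 30 and 21. On that draw bip2, CG33144, ClC-a, Set1 and l(1)G0156 were not past the rule. With all reads, ribosomal RNA included, as the library size, 25 genes were higher and 3 lower, and with the deposited TPM 17 were higher and 2 lower. Without thinning 1.74% of the genes were higher and 0.176% lower, of which 27 and 2 were among the 30 and 21. Among cells with under 50% ribosomal RNA (30 of them Dr-positive) 22 were higher and 19 lower, but only 6 and 4 of these were among the 30 and 21. Leaving out 1 plate gave 26 to 51 higher genes, 51 without plate 1 and 47 without plate 14, and 24 to 36 lower genes, 36 without each of plates 1, 6 and 8 and 32 without each of plates 3, 11 and 17. No named gene was past the rule under every alternative, and 12 of 24 were so without any 1 plate.

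**Figure D5:**
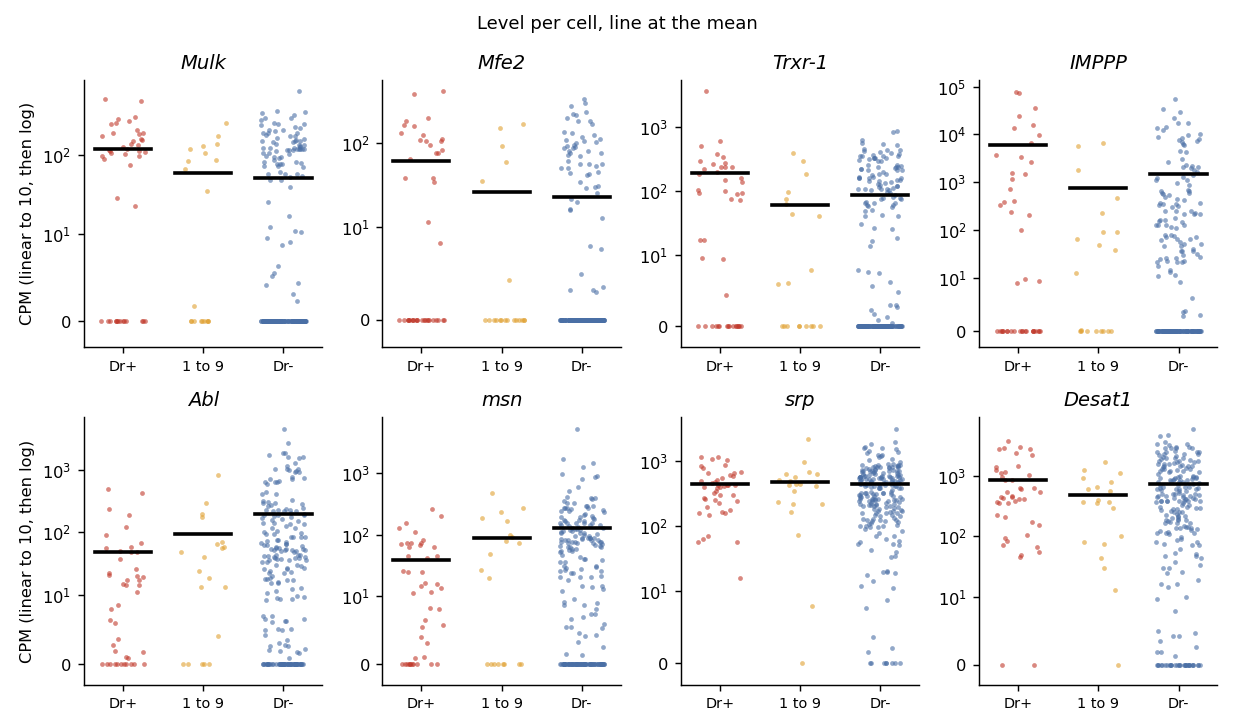
Level per cell in CPM (vertical axes, linear up to 10 and logarithmic above) of 8 genes in Dr-positive cells (Dr+, 45), cells with 1 to 9 Dr reads (20) and Dr-negative cells (Dr-), 1 point per cell and a black line at the mean. Mulk, Mfe2, Trxr-1 and IMPPP have the higher mean in Dr-positive cells and Abl and msn the lower one, while srp (430 CPM in both groups) and Desat1 (844 and 732.5 CPM) differ little, and the groups overlap in all 8 panels.

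Among the pathways that act around Dr in other tissues 0 genes were past the rule. Of 16 compared genes of the Dpp pathway, which sets dorsal fates, 0 were past it in either direction, with a median log2 ratio of -0.20 beside -0.04 over all genes. The largest difference in detection was in shn, a zinc finger factor that acts downstream of Dpp, found in 24.4% of thinned Dr-positive and 41.6% of Dr-negative cells, with means of 166.5 CPM and 211.4 CPM. Of 11 compared genes of the EGF receptor pathway 0 were past the rule, with a median of -0.09. The receptor gene Egfr had 233.6 CPM against 153.5 CPM, and its ligand gene spi 9.33 CPM against 36.3 CPM. Of 8 compared Wnt and Hedgehog genes 0 were past the rule, with a median of 0.06. The one closest to it was ci, the transcription factor of the Hedgehog pathway, with 86.4 CPM against 44.3 CPM and 29.3% against 15.8% of thinned cells, higher on 11 of 14 plates. Of the other columnar genes of the neuroectoderm, ind was not analysed here and vnd reached 10 reads in 0% of Dr-positive and 0.889% of Dr-negative cells. The neuroectoderm gene SoxN had the same shares.

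Of the 4 muscle identity factors that could be compared besides Dr, 0 were past the rule. All 4 had the lower mean in Dr-positive cells, and their median log2 ratio of -0.76 was the furthest from 0 of all the lists. The gene sd, which encodes the partner of vestigial, had 3.43 CPM against 14.6 CPM (log2 ratio -1.22) and was found in 0% against 3.96% of thinned cells. The log2 ratios of zfh1, Mef2 and ap were -0.94, -0.58 and -0.05. The muscle identity genes ap and Kr were detected in 6.67% and 2.22% of Dr-positive cells and in 5.33% and 2.22% of Dr-negative cells. The genes lms, kn, Poxm, Ptx1, mid and org-1 reached 10 reads in 0 of 45 Dr-positive cells, which allows a share of up to 6.67%. Mef2, the general muscle factor, was detected in 33.3% and 37.3%. Among 9 compared NK and other homeodomain genes 0 were past the rule, with a median log2 ratio of -0.28. The Hox cofactor genes exd and hth had 12.9 CPM against 9.08 CPM and 189.3 CPM against 175.4 CPM, and zfh1, which is active in mesoderm, had 99.4 CPM against 195.7 CPM with equal medians of 69.6 CPM and 69.4 CPM.

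The metabolic program of the fat body was carried by both groups at similar levels. Of 25 compared genes of lipid and storage metabolism and 18 of carbohydrate metabolism 0 were past the rule, with median log2 ratios of -0.14 and 0.04. The lipid median is the value of FASN1, a gene of the selection rule. Detection at equal depth was higher in Dr-positive cells for the phosphatidate phosphatase gene Lpin (82.9% against 61.9%, with means of 294.7 CPM and 365.2 CPM), for the glycogen phosphorylase gene GlyP (70.7% against 49.01%, 247.02 CPM and 209.3 CPM) and for the glycogen synthase gene GlyS (87.8% against 67.3%, 382.6 CPM and 339.4 CPM). The hexokinase gene Hex-A went the other way, at 65.9% against 83.2% and 422.7 CPM against 632.4 CPM. In all 4 genes the means differed less than 2 times. Of 10 compared basement membrane genes 0 were past the rule, with a median of -0.10, and the nidogen gene Ndg was the furthest, with 79.7 CPM against 44.03 CPM and 36.6% against 16.8% of thinned cells. Of 16 compared stress and early response genes 0 were past the rule, with a median of -0.19. The heat shock gene Hsp68 had 536.5 CPM against 544.5 CPM and was found in 36.6% against 48.02% of thinned cells. Means differed over 2 times in Gadd45, a growth arrest and DNA damage gene, with 447.9 CPM against 213.8 CPM, in the small heat shock gene Hsp23, with 15.3 CPM against 78.3 CPM, and in Hsp70Ba, which can share reads with its near-identical copies, with 2.70 CPM against 11.4 CPM, while their thinned shares differed by under 4 percentage points.

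Of the remaining lists, 0 genes were past the rule among 5 axis and fat body patterning genes, 12 cell cycle genes, 3 mitochondrial genes, 6 hemocyte markers, 17 contractile muscle genes, 3 heart markers, 4 neuronal and 4 glial markers, 3 epidermis and tendon markers and 5 somatic gonad genes that could be compared. The midgut list had 0 genes with enough cells to compare. The median log2 ratio of these lists lay between -0.26 for heart and 0.10 for epidermis and tendon. The heart value is that of prc, a gene of the selection rule, with -1.11 for Doc3 and -0.13 for svp. Mhc, whose reads the selection limits, is 1 of the 17 contractile genes. In the glial list moody, a receptor of the blood-brain barrier, had 3.04 CPM against 25.4 CPM and was detected in 6.67% against 18.2% of cells.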

How the data were processed

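Each cell was sequenced by Smart-seq2. The authors trimmed the reads, pseudo-aligned them with kallisto 0.43.0 to Ensembl cDNA of BDGP6 (the submitters' processing notes also name R 3.5.1), and deposited whole estimated counts for 8862 genes of the series and, for every cell, estimated counts with TPM by transcript. The deposited TPM was summed to genes for 1 alternative. Transcripts without a gene (0.216% of reads) were left out. Dfd was taken from the cell files. Total reads per cell ran from 98988 to 6870936 (median 763368). No cell columns were identical, and no doublet caller was run.

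Of 837 cells, 809 had 500 genes with 10 reads; 338 of these had apolpp, 301 also FASN1, 297 also prc, 293 also little Ppn and 290 also little Mhc. There were 225 Dr-negative cells and 519 other cells that passed, of which 228 had Ppn. CPM was computed over reads outside 11 ribosomal RNA features with Python 3.11.15, numpy 2.4.6, pandas 2.3.3 and scipy 1.17.1. For equal depth, reads were drawn without replacement down to 106582 per cell, the 10th percentile of the compared cells, which left 41 Dr-positive, 202 Dr-negative, 259 fat-body-like and 468 other cells. Genes with 10 reads in at least 10 compared cells were compared, Dr excepted. Shares carry exact Clopper-Pearson and differences Newcombe 95% intervals. Reads of a PCR library are not independent molecules, so intervals, and the limit of 3 counts where a share is 0, reflect counting error alone. The comparison was also run on simulated counts, with planted changes larger than the 2-fold limit and otherwise the same mean profile in all cells. That run does not bear on calls near the limit or on genes carried by few cells. Named genes are the 12 with the largest thinned share difference on each side of the rule, the Hox genes, the genes of the selection rule, and up to 4 members of each list by the same difference; other genes named were chosen after their values were seen. The members and lists were chosen with earlier results of these data known. Alternatives varied the Dr limits, the selection rule, depth, ribosomal RNA, plates, detection, scaling and filters.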

Additional observations from a re-analysis of the deposited data

How the results depend on the processing

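Of 150 values of the 5 comparisons (reads, ribosomal RNA, Hox genes, genes higher and lower) under 19 alternatives and without each of 15 plates, 29 left the spread between plates, the counting interval or 1.5 times the share of genes. The ratio of median total reads ran from 1.29 to 1.46 without 1 plate, the ribosomal RNA difference from -15.1 to -11.3 and the Hox difference from -9.93 to -3.14 percentage points, and the Hox difference was 9.78 without thinning. As shares of the genes compared, the genes higher and lower (0.48% and 0.336%) ran from 0.428 to 0.833% and from 0.392 to 0.593% without 1 plate. They were 0.268% and 0.189% with Dr-positive set at 1 read, 1.11% and 1.19% at 50 reads, 0.763% and 0.747% with groups set after thinning, 6.16% and 8.15% at 50% or more ribosomal RNA (15 Dr-positive cells), 1.17% and 0.544% with plates weighted equally, 0.171% and 0.188% with detection at 20 reads, 1.74% and 0.176% without thinning and 0.275% and 0.032% with TPM. Among deeper cells 0.906% were lower, with detection at 1 read 1.54% were higher, and with all reads as the library size 0.048% were lower. In cells with 1000 genes after thinning, an alternative chosen after seeing the data, 0.279% were higher. The log2 ratio of CG31769 reversed to -0.42 at 50% or more ribosomal RNA. The cause was not tested. Library size by all reads moved the median log2 ratio of all genes from -0.04 to 0.09, and 2 of the 21 lower calls remained, so the lower side is read relative to reads outside ribosomal RNA only. The 45 Dr-positive cells limit every share.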

Other observations

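Both gene groups given next were assembled after the values were seen, so their counts describe these cells and support nothing. Of 30 compared genes of the endoplasmic reticulum, 23 had a log2 ratio above 0 and 7 below, with a median of 0.38 beside -0.04 over all genes, and 2 were past the rule on the higher side (CaBP1 and OstDelta, a subunit of oligosaccharyltransferase) and 0 on the lower, beside 0.48% and 0.336% of all compared genes. Xbp1, the transcription factor of the unfolded protein response, was found in 78.05% of thinned Dr-positive and 56.9% of Dr-negative cells, with means of 332.7 CPM and 254.8 CPM, higher on 10 of 14 plates. The protein disulfide isomerase gene Pdi had 427.5 CPM against 246.7 CPM, and the chaperone gene Gp93 430.7 CPM against 204.6 CPM. Hrd3, which acts in degradation from the endoplasmic reticulum, went the other way with 9.72 CPM against 27.97 CPM.

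Of 21 compared humoral immune genes, 18 had a log2 ratio above 0 and 3 below, with a median of 0.71, and 3 were past the rule on the higher side (IM3, IMPPP and CG5778) and 0 on the lower, beside the same 0.48% and 0.336% of all compared genes. IMPPP, which encodes an immune-induced precursor protein, was 0 CPM at the lowest, 9.504 at the median and 77884 at the highest in Dr-positive cells and 0, 0 and 53817 CPM in Dr-negative cells, with means of 6081 CPM and 1528 CPM. Its thinned shares of 46.3% and 32.2% differed by 14.2 percentage points (-1.62 to 30.3). The peptide gene IM3 had means of 2403 CPM and 1097 CPM with a median of 0 CPM in both groups, and the highest single cell, at 87510 CPM, was Dr-negative. IM23 had means of 925 CPM and 164.6 CPM and reached 10 reads in 5 cells of each group. The highest immune levels were thus carried by few cells of either group. IM33, detected in 100% and 99.1% of cells, had 7236 CPM against 8705 CPM.

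A thinned Dr-positive cell had 2 of the 30 higher genes at the lowest, 7 at the median and 18 at the highest, and a Dr-negative cell 0, 3 and 13, with these genes selected on this very difference. The 16 thinned cells with 1 to 9 Dr reads, which did not choose the genes, had 0, 5 and 7 of the 30 higher genes, and 1, 4 and 9 of the 21 lower genes, beside 0, 2 and 8 in Dr-positive and 0, 5 and 11 in Dr-negative cells.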
